A study of Mus musculus with 24 samples.

Results

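The genes described are the enzymes that make and handle nicotinamide adenine dinucleotide (NAD), with Nampt at their head. They were taken by symbol from the table of normalized values. Of the 9 symbols listed, 8 were among the 12010 genes of the table: Nampt, Naprt, Nadsyn1, Nmnat1, Nmnat3, Nadk, Nadk2 and Nnmt. Qprt was not analysed here. All 8 were kept in the main tests, with no filter on low values. The list was drawn up by symbol, but with earlier results of these data known.

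NAD carries electrons in glycolysis and respiration and is consumed by sirtuins and poly(ADP-ribose) polymerases (PARPs), which release nicotinamide. Most mammalian cells rebuild NAD from that nicotinamide: NAMPT, the rate-limiting enzyme of this salvage route, makes nicotinamide mononucleotide and the NMNAT enzymes join it to an adenylate group. Nicotinic acid enters by a parallel route through NAPRT and the NAD synthetase NADSYN1, NAD kinases turn NAD into NADP, and NNMT methylates nicotinamide and so takes it out of the salvage route.

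Messenger RNA of B16F10-luc2 cells, a mouse melanoma line that carries a luciferase reporter, was sequenced from the 3′ end in 8 lines with 3 libraries each. The parental cells were wild type for the transcription factors MITF, TFEB and TFE3, which recognize the same DNA sequences. The other 7 lines lacked 1, 2 or all 3 of them: the MITF KO, TFE3 KO and TFEB KO, the MITF/TFE3 DKO, MITF/TFEB DKO and TFEB/TFE3 DKO (double knockouts), and the TKO (triple knockout). All were grown in DMEM with serum, and the question was what each factor contributes to gene expression alone and in the absence of the others. The MITF KO was a line made earlier, and Tfeb and Tfe3 were disrupted in parental or MITF KO cells with Cas9 ribonucleoprotein. The 4 lines without MITF thus share 1 MITF-edited origin. Where they agree, loss of MITF and traits of that origin cannot be told apart. The lines edited in Tfeb or Tfe3 grew from single clones, so that the effect of a genotype and of its clone cannot be told apart. Whether the MITF KO grew from a single clone is not stated in the sources used here. As only 1 such line was sequenced, its genotype and traits of that line cannot be told apart either. Loss of a factor from a line names below a comparison of 2 lines that differ in that factor. No line was made by removing MITF from cells that lacked TFEB or TFE3. No source says that the 3 libraries of a line came from separate cultures, and p-values therefore measure the spread between these libraries. In bulk RNA, fewer cells that express a gene and less RNA per cell cannot be told apart.

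Between 18300902 and 26667877 reads per library fell on genes. Tfeb levels were 2.06 to 5.27 CPM in the 4 lines without TFEB and 7.87 to 22.7 CPM in the others, and Tfe3 levels were 8.01 to 21.7 CPM in the 4 lines without TFE3 and 31.1 to 62.5 CPM in the others. Mitf mRNA remained at 326 to 1470 CPM in lines without MITF, so its level does not check that label. In the MITF KO the paper noted a minor protein band and proposes that a little truncated MITF may remain. All 9 melanocyte markers were in the table, and their summed level was 15871 to 40689 CPM per library, lowest in the TKO and next lowest in the MITF/TFEB DKO. Of the fibroblast, leukocyte and epithelial markers, 2 of 6, 1 of 5 and 2 of 4 were in the table, with summed levels of 9.73 to 45.3, 0.225 to 1.74 and 0.74 to 19.7 CPM. Krt14, an epithelial keratin, was at 0 in parental cells, but reached 16.1 to 19.3 CPM in the TKO and 6.51 to 8.98 CPM in the MITF/TFEB DKO. Its part in the results on these 2 lines was not tested.

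Levels are CPM, the reads of a gene as a share of the library total, scaled by the trimmed mean of M-values (TMM), the authors' normalization. A 3′ read counts a transcript once whatever its length, so levels of different genes are set side by side without correction for length. Whether the 3′ ends of different genes are captured equally was not tested. Nampt was the most abundant of the 8, with 79.2 CPM on average over the 24 libraries. Nadk averaged 42.6 CPM and Nnmt 39.2 CPM. The remaining members were low: Nmnat1 averaged 6.24 CPM, Nmnat3 5.31 CPM, Nadsyn1 4.93 CPM, Nadk2 4.50 CPM and Naprt 0.817 CPM. Fold changes are differences of log2(CPM + 1), which understates the change of the low genes, and a change was called where limma's moderated test gave a Benjamini-Hochberg adjusted p under 0.05 over all 12010 genes. A DEG differed at least 2-fold with an unadjusted p under 0.05.

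**Figure D1:**
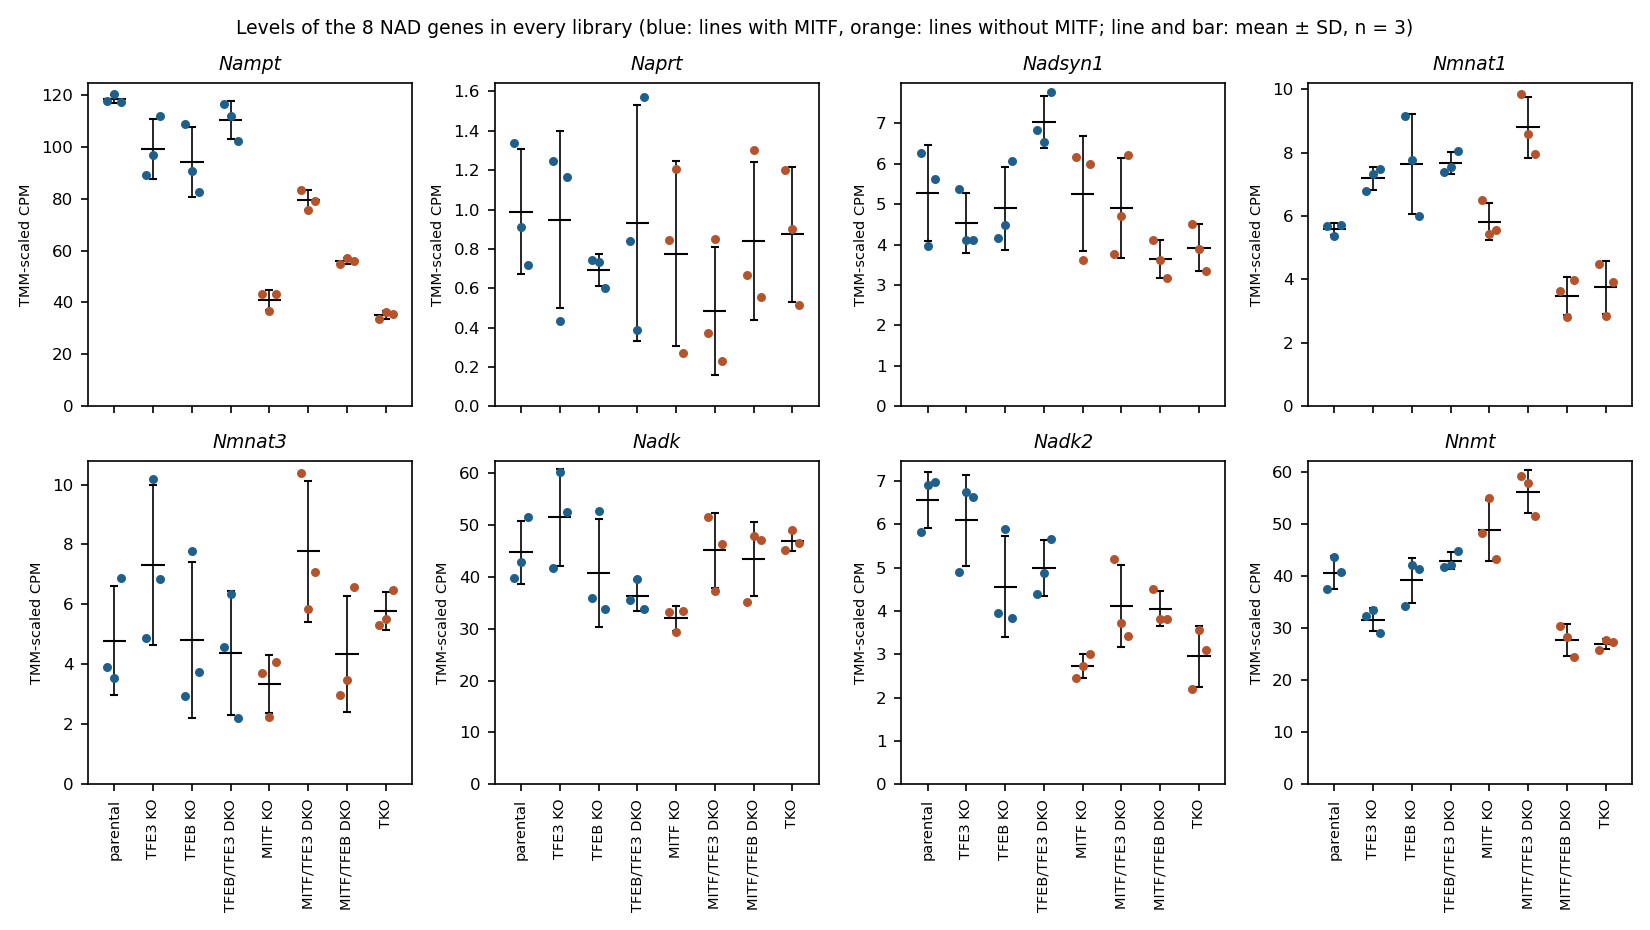
TMM-scaled CPM of the 8 NAD genes (y axis, linear from 0, a scale for each gene) in each of the 3 libraries of the 8 lines (x axis), with the mean as a line and the SD as a bar. Nampt spans 33.6 to 120 CPM, with the means of the 4 lines without MITF below those of the 4 lines with it, although 1 TFEB KO library (82.5 CPM) lies below 1 of the MITF/TFE3 DKO (83.5 CPM), whereas Naprt stays at or under 1.57 CPM throughout.

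Nampt, at chr12:32869544-32903368 on the plus strand of GRCm39 (11 exons in its canonical transcript, ENSMUSG00000020572), was lower in every line without MITF. Parental replicates 1 to 3 had 117, 120 and 117 CPM, and those of the MITF KO 43.2, 36.7 and 43.3 CPM. The TKO had 33.6, 36.4 and 35.5 CPM, and the MITF/TFEB DKO 54.7, 57.0 and 56.1 CPM. The MITF/TFE3 DKO kept the highest level among the lines without MITF, at 83.5, 75.7 and 79.2 CPM. No library of these 4 lines reached the lowest parental library (117.2 CPM). The same held for the KO lines with MITF, whose highest library had 116.6 CPM (TFEB/TFE3 DKO). How many of all genes behaved so was not counted.

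In the lines that kept MITF, Nampt stayed nearer to the parental level. The TFEB/TFE3 DKO had 117, 112 and 102 CPM, the TFE3 KO 89.1, 96.7 and 112 CPM, and the TFEB KO 109, 90.8 and 82.5 CPM. The ranges of these 3 lines overlapped each other, and that of the TFEB KO alone reached down to within the range of the MITF/TFE3 DKO.

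Against parental cells, Nampt fell by 1.51 on the log2 scale in the MITF KO (SE 0.0966, adjusted p = 1.34e-11), by 1.72 in the TKO (4.93e-13) and by 1.07 in the MITF/TFEB DKO (2.76e-09). In these 3 lines Nampt was a DEG, as were 2.99%, 6.41% and 4.94% of all genes downward. The fall in the MITF/TFE3 DKO was smaller, at 0.57 (6.05e-05). All 4 falls were called under every alternative setting and without any one library.

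With MITF present, the changes of Nampt were small. In the TFEB KO it fell by 0.34 (adjusted p = 0.0447, limma), but edgeR on reads recovered from the table gave 0.0531, and the adjusted p ran from 0.00762 to 0.268 over the alternatives. The call was lost without parental replicate 1, 2 or 3 and without TFEB KO replicate 2 or 3. In the TFE3 KO the difference was -0.26 (adjusted p = 0.0853), which passed without TFE3 KO replicate 3 (0.0299), and in the TFEB/TFE3 DKO it was -0.10 (0.572).

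In descending order of mean Nampt level, parental cells had 118 ± 1.65 CPM (SD, n = 3), the TFEB/TFE3 DKO 110 ± 7.35, the TFE3 KO 99.2 ± 11.6 and the TFEB KO 94.0 ± 13.4 CPM. Next came the MITF/TFE3 DKO with 79.4 ± 3.91 CPM, the MITF/TFEB DKO with 56.0 ± 1.15, the MITF KO with 41.1 ± 3.80 and the TKO with 35.2 ± 1.47 CPM. Of the 7 neighbouring pairs in this order, 2 differed: the MITF/TFE3 DKO lay above the MITF/TFEB DKO by 0.50 (adjusted p = 0.000186) and the latter above the MITF KO by 0.44 (0.000609). The MITF KO and the TKO were not separated (0.21, 0.0693). Over all 28 pairs of lines, 21 differed.

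Removal of a further factor from the MITF KO moved Nampt upward, and removal of the last one moved it down again. The MITF/TFE3 DKO was above the MITF KO by 0.94 (adjusted p = 1.04e-07) and the MITF/TFEB DKO by 0.44 (0.000609). The TKO was below the MITF/TFE3 DKO by a difference of -1.15 (9.96e-10) and below the MITF/TFEB DKO by -0.66 (3.23e-05). Nampt in MITF KO cells was thus higher without TFE3 or without TFEB than with both, and lowest in the mean when none of the 3 factors was left.

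The fall of Nampt between lines with and without MITF differed in size with the other factors present. It was -1.62 when MITF was lost from the TFEB/TFE3 DKO (adjusted p = 1.45e-12), close to the -1.51 seen on loss from parental cells. It was -0.73 on loss from the TFEB KO (9.7e-07) and -0.31 on loss from the TFE3 KO (0.0112). The last call was lost without TFE3 KO replicate 3 (0.0846) and when only the 6 libraries compared were fitted (0.0665). Tested as an interaction in cells that have TFEB, the effect of losing MITF was 1.20 less negative on the log2 scale without TFE3 than with it (SE 0.137, adjusted p = 5.9e-07). In cells that have TFE3, it was 0.78 less negative without TFEB than with it (0.000103). The order was reversed where the remaining factor was absent. In cells without TFEB the fall was -1.62 without TFE3 and -0.73 with it. In cells without TFE3 it was -1.62 without TFEB and -0.31 with it. These reversed differences were not tested as interactions.

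Genes near Nampt also shifted in these lines. The median change near a gene is that of 100 neighbours with a mean of at least 5 CPM. The median over all genes was subtracted, and neighbours were taken in order along the chromosome. Near Nampt this median log2 change was -0.34 for the MITF KO and -0.16 for the MITF/TFE3 DKO. It was -0.52 for the MITF/TFEB DKO and -0.45 for the TKO. In the lines with MITF it lay between 0.03 and 0.15. Nampt fell further than this median in each of the 4 lines without MITF, and the part of its neighbourhood in its fall was not tested.

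The stretch before the start of the canonical Nampt transcript is given because all 3 factors recognize the letters CACGTG and the related CATGTG. These are the 250 bases up to the start (chr12:32869972-32870221, plus strand, GRCm39):

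Nampt: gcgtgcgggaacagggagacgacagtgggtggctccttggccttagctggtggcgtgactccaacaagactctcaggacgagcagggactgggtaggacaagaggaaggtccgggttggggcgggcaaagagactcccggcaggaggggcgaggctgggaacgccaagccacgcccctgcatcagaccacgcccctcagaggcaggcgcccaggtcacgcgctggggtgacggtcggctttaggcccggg

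Neither CACGTG nor CATGTG, read on both strands (CACATG is the reverse of the second), occurs there, nor in a wider window of 1200 bases, most of them before the start. The 300 bases from 250 before to 50 after the start held none of these letters in any of the 8 members. Of 11659 promoters of the genes in the table, 10.2% held CACGTG and 8.84% held CATGTG. With shares this low, finding none among 8 genes does not set the members apart. In the 1200-base window, which holds CACGTG in 22.8% of genes and CATGTG in 41.2%, 4 members had 5 matches. They are shown with 10 bases on either side, 5′ to 3′ along the gene's strand, with the matching letters in capitals:

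Naprt, chr15:75766788-75766813, minus strand: tcccagcaacCACATGgaaacttaca

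Nadsyn1, chr7:143376962-143376987, minus strand: tgctttttgcCACGTGttcatcacag

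Nadk, chr4:155647494-155647519, plus strand: ccgcgttgtcCACATGgtcctggaga

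Nadk, chr4:155648222-155648247, plus strand: ccgctctcccCACGTGccctgcagcg

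Nnmt, chr9:48516868-48516893, minus strand: ggcatgttggCATGTGagcttggcct

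Their first letters lie at -473, -382, -638, 91 and -425 from the start. The longer form TCACGTGA, contained in 2.78% of these windows, was in none of the members. A match describes letters and is not a binding site, and a window without a match says nothing of the factors. From binding data in human melanoma cells, the paper counts Nampt among the genes that MITF, TFEB and TFE3 all bind.

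The nicotinic acid route was sparsely expressed. Naprt (chr15:75762805-75766413, minus strand), which opens this route, had 5 to 33 reads per library. Its mean level was 0.989 CPM in parental cells and 0.483 to 0.949 CPM in the KO lines, and libraries of all 8 lines overlapped. None of the 28 pairs of lines differed by limma, and 0 of 16 comparisons had an unadjusted p under 0.05 or passed with edgeR or DESeq2. With so few reads, moderate differences were not detectable at this depth.

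Nadsyn1 (chr7:143349314-143376610, minus strand), the last enzyme of the nicotinic acid route, was at 6.26, 3.96 and 5.62 CPM in parental cells. It was highest in the TFEB/TFE3 DKO at 6.83, 6.53 and 7.77 CPM and lower in the TKO at 4.52, 3.90 and 3.35 CPM. The TFEB/TFE3 DKO libraries lay above all libraries of these other 2 lines. No KO line differed from parental cells, but Nadsyn1 fell by 0.71 when MITF was lost from the TFEB/TFE3 DKO (SE 0.191, adjusted p = 0.00298, limma). It rose by 0.54 when TFEB was lost from the TFE3 KO (0.0368), a call lost without TFE3 KO replicate 2 or 3 or TFEB/TFE3 DKO replicate 1 or 3 (adjusted p 0.0789 to 0.127) and when only the 6 libraries compared were fitted (0.0695).

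The NMNAT isoenzymes catalyse the adenylyl transfer that both routes share. Nmnat1 (chr4:149552026-149569680, minus strand) encodes the nuclear isoenzyme, and its level was 5.70, 5.37 and 5.71 CPM in parental cells. Nmnat1 in the MITF/TFE3 DKO was at 9.84, 8.57 and 7.95 CPM. It was lower in the MITF/TFEB DKO, with 3.65, 2.81 and 3.98 CPM, and likewise in the TKO, with 4.48, 2.85 and 3.91 CPM. The MITF/TFE3 DKO lay above the parental range and the other 2 below it.

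Nmnat1 rose by 0.57 against parental cells in the MITF/TFE3 DKO (SE 0.150, adjusted p = 0.00409). It fell by 0.57 in the MITF/TFEB DKO (0.00273) and by 0.49 in the TKO (0.00819), the last not without TKO replicate 2 (0.0736). In the MITF KO its level, 6.50, 5.42 and 5.56 CPM, overlapped that of parental cells (0.05, 0.828). In the 3 lines that kept MITF its mean ran from 7.19 to 7.66 CPM, above the parental libraries, but the differences of 0.31 to 0.39 did not pass (adjusted p 0.111 to 0.185).

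Presence of TFEB separated the Nmnat1 levels of the lines without MITF. Loss of TFEB from the MITF/TFE3 DKO lowered Nmnat1 by a difference of -1.05 (adjusted p = 3.34e-06), and loss from the MITF KO by -0.61 (0.00169). Loss of MITF from the TFEB KO gave -0.94 (1.21e-05) and from the TFEB/TFE3 DKO -0.88 (2.74e-05), whereas it gave 0.05 and 0.25 in cells with TFEB (0.828 and 0.176). The interaction of MITF and TFEB, tested in cells that have TFE3, was -0.99 (SE 0.212, adjusted p = 0.000839).

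Nmnat3 (chr9:98169483-98302816, plus strand), the mitochondrial isoenzyme, varied among libraries of a line more than between most lines. Parental cells had 3.93, 3.55 and 6.88 CPM, the MITF KO 3.72, 2.25 and 4.09 CPM, and the MITF/TFE3 DKO 10.4, 5.84 and 7.08 CPM. The last 2 lines did not overlap, and Nmnat3 rose by 1.0 from the former to the latter (SE 0.329, adjusted p = 0.0197, limma). The call was lost without MITF KO replicate 2 (0.104) or MITF/TFE3 DKO replicate 1 (0.105). In the 7 comparisons with parental cells no difference passed (adjusted p 0.141 to 0.979).

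Nmnat2, the third isoenzyme, is bound to Golgi and transport vesicles and was not one of the 8 genes. It is described because it moved opposite to Nampt in the lines without MITF. Parental cells had 4.27, 2.91 and 3.01 CPM, the MITF KO 13.9, 17.9 and 12.5 CPM, and the TKO 16.5, 14.6 and 13.5 CPM. Mean levels were 2.14 to 4.77 CPM in the 4 lines with MITF and 14.8 to 16.8 CPM in the 4 without it, with no overlap. Nmnat2 rose by 1.84 in the MITF KO (SE 0.166, adjusted p = 6.13e-09), and by 2.02 for the MITF/TFE3 DKO (1.89e-09). The rise was 1.93 for the MITF/TFEB DKO (1.14e-09) and 1.86 for the TKO (1.85e-09), and all 4 rises held under every alternative tried. A rise in all 4 lines was called for 7.34% of genes. Between neighbours in the order of these 4 lines no difference in Nmnat2 passed (adjusted p 0.668 to 0.925). Around it, the median change of the 100 nearest genes was 0.62 for the MITF/TFEB DKO and 0.70 for the TKO, and their part was not tested.

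**Figure D2:**
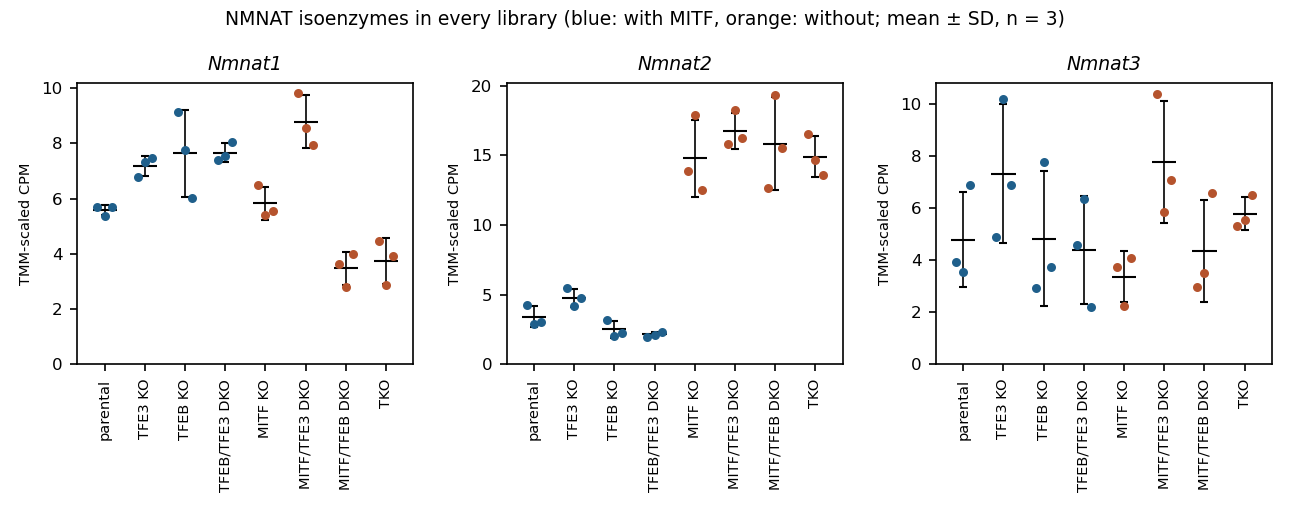
TMM-scaled CPM (y axis, linear from 0) of Nmnat1, Nmnat2 and Nmnat3 in the 3 libraries of each line (x axis), with mean and SD. Nmnat2 means are 14.8 to 16.8 CPM in the 4 lines without MITF and at most 4.77 CPM in the others, while Nmnat1 is lowest in the 2 lines that lack both MITF and TFEB.

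The 2 NAD kinases behaved differently. Nadk2 (chr15:9071264-9110979, plus strand), the mitochondrial kinase, was at 5.82, 6.91 and 6.97 CPM in parental cells, from 135 to 155 reads. The MITF KO had 2.45, 2.73 and 3.0 CPM and the TKO 2.19, 3.57 and 3.10 CPM. The MITF/TFE3 DKO had 5.19, 3.72 and 3.43 CPM and the MITF/TFEB DKO 4.51, 3.82 and 3.82 CPM. All libraries of these 4 lines were below the lowest parental library. So were those of the TFEB/TFE3 DKO, which keeps MITF (4.39, 4.88 and 5.67 CPM). The TFEB KO (3.94, 5.90 and 3.84 CPM) and the TFE3 KO (4.89, 6.75 and 6.63 CPM) overlapped the parental range. None of these lines with MITF differed from parental cells by limma (adjusted p 0.148 to 0.748).

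Nadk2 fell by 1.02 in the MITF KO (SE 0.172, adjusted p = 5.57e-05, limma), by 0.95 in the TKO (5.96e-05), by 0.58 in the MITF/TFE3 DKO (0.0096) and by 0.58 in the MITF/TFEB DKO (0.00614). The call in the MITF/TFE3 DKO was lost without its replicate 3 (0.0524). Nampt and Nadk2 were the 2 members lower than parental in all 4 lines without MITF, which held for 6.19% of all genes. The 100 genes nearest to Nadk2 had a median change of -0.31 for the MITF/TFE3 DKO and of -0.22 to -0.18 for the other 3 lines without MITF, and their part was not tested. Loss of MITF from the TFEB/TFE3 DKO lowered Nadk2 by a difference of -0.61 (0.00429) and from the TFE3 KO by -0.48 (0.0276), the latter not without TFE3 KO replicate 2 or 3 or MITF/TFE3 DKO replicate 2 or 3 (0.087 to 0.119). Loss from the TFEB KO gave -0.12 (0.566). The interaction of MITF and TFEB, tested in cells that have TFE3, was 0.90 (SE 0.243, adjusted p = 0.0058).

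Nadk (chr4:155646806-155675465, plus strand), the cytosolic kinase, was at 39.8, 42.8 and 51.6 CPM in parental cells, while the MITF KO had 33.3, 29.3 and 33.5 CPM, below the parental range. It fell by 0.46 there (SE 0.160, adjusted p = 0.025, limma), a call lost without parental replicate 3 (0.128) or MITF KO replicate 2 (0.0942). The other 3 lines without MITF had means of 43.4 to 46.9 CPM, and their differences from parental cells were -0.05 to 0.07 (adjusted p 0.716 to 0.974). Against the MITF KO, Nadk rose by 0.47 in the MITF/TFE3 DKO (0.023) and by 0.42 in the MITF/TFEB DKO (0.0347). The first call was lost without MITF KO replicate 2, MITF/TFE3 DKO replicate 1 or 3 (0.0652 to 0.119), and the second without any 1 of the MITF KO replicates or MITF/TFEB DKO replicate 2 or 3 (0.0504 to 0.132).

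Nnmt (chr9:48448913-48518959, minus strand), which removes nicotinamide, split the lines without MITF. Parental cells had 37.4, 43.7 and 40.7 CPM and the MITF KO 48.2, 54.9 and 43.3 CPM. Nnmt in the MITF/TFE3 DKO was at 59.2, 57.8 and 51.5 CPM, whereas the MITF/TFEB DKO had 30.4, 28.2 and 24.4 CPM, with 25.8, 27.7 and 27.2 CPM for the TKO. The MITF/TFE3 DKO lay above the parental range, both lines that also lacked TFEB below it, and the MITF KO overlapped it.

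Against parental cells, Nnmt rose by 0.46 in the MITF/TFE3 DKO (SE 0.105, adjusted p = 0.00132, limma). It fell by 0.54 in the MITF/TFEB DKO (0.000138) and by 0.58 in the TKO (6.75e-05), 2 lines where the median change of its 100 nearest genes was -0.24 and -0.25. The difference in the MITF KO was 0.25 (0.0606 with limma and 0.0465 with DESeq2, 0.0276 to 0.279 over the alternatives). In the TFE3 KO, at 32.3, 33.4 and 29.1 CPM, Nnmt fell by 0.35 (0.0299), which was lost without parental replicate 2 or 3 or TFE3 KO replicate 3 (0.0689 to 0.141) and when only the 6 libraries compared were fitted (0.109).

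The direction in which Nnmt moved on loss of MITF differed with the factors left. It rose by 0.81 on loss from the TFE3 KO (adjusted p = 1.45e-06), and fell by 0.49 on loss from the TFEB KO (0.000413) and by 0.65 on loss from the TFEB/TFE3 DKO (1.38e-05). Loss of TFEB lowered Nnmt by a difference of -1.03 in the MITF/TFE3 DKO (2.36e-08) and of -0.80 in the MITF KO (1.45e-06), but it rose by 0.43 when TFEB was lost from the TFE3 KO (0.00446). The interaction of MITF and TFEB, tested in cells that have TFE3, was -0.74 (SE 0.149, adjusted p = 0.000439). That of MITF and TFE3, tested in cells that have TFEB, was 0.56 (0.00933).

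**Figure D3:**
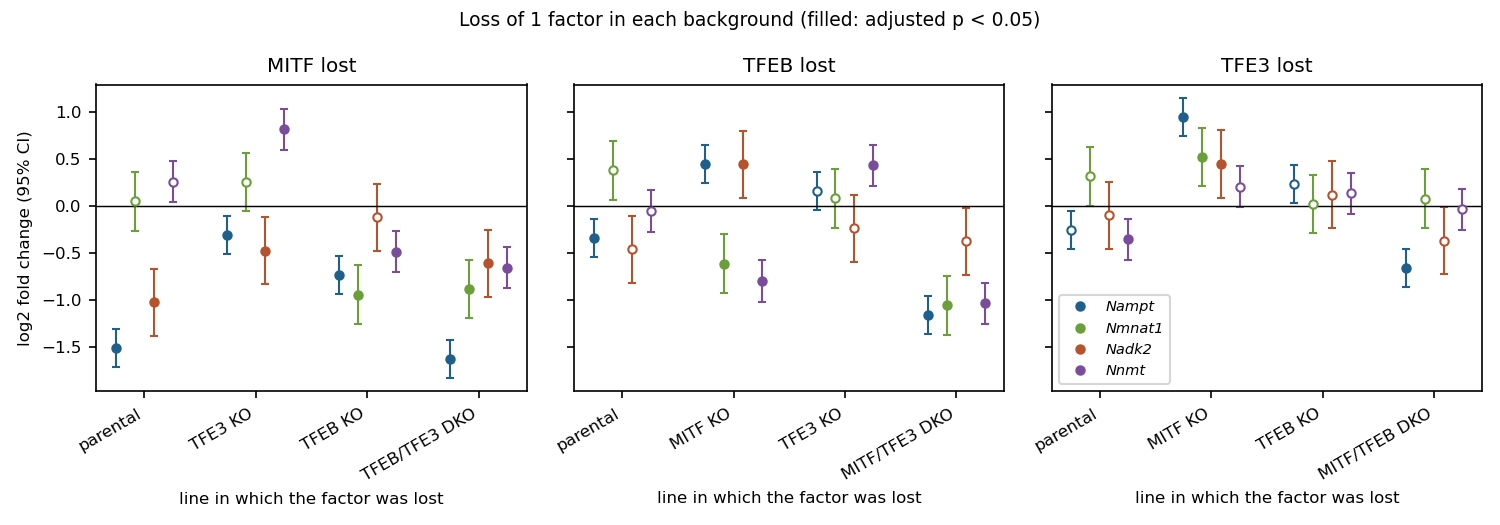
Log2 fold change of Nampt, Nmnat1, Nadk2 and Nnmt (y axis, with 95% confidence intervals from the fit) on loss of MITF, TFEB or TFE3 from each of the 4 lines that have the factor (x axis), filled where the adjusted p was under 0.05. Nampt falls on every loss of MITF, from -0.31 to -1.62, while Nnmt moves from 0.81 to -0.65 and loss of TFEB or TFE3 from the MITF KO raises Nampt by 0.44 and 0.94.

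Counted over the 8 members, the shares called in the lines without MITF were near those of all genes. In the MITF KO, 3 members were lower and 0 higher (37.8% of all genes were called), in the MITF/TFE3 DKO 2 were higher and 2 lower (41.9%), in the MITF/TFEB DKO 4 were lower (56.1%) and in the TKO 4 were lower (56.2%). The median log2 change of the 8 was -0.29, -0.04, -0.48 and -0.41 in these lines, against 0.00, 0.02, 0.01 and 0.01 over all genes. In the TFE3 KO 1 member was lower (12.3%) and in the TFEB KO 1 was lower (4.84%). In the TFEB/TFE3 DKO 0 of 8 passed with limma, edgeR or DESeq2 and 1 had an unadjusted p under 0.05, beside 8.81% of all genes called.

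**Figure D4:**
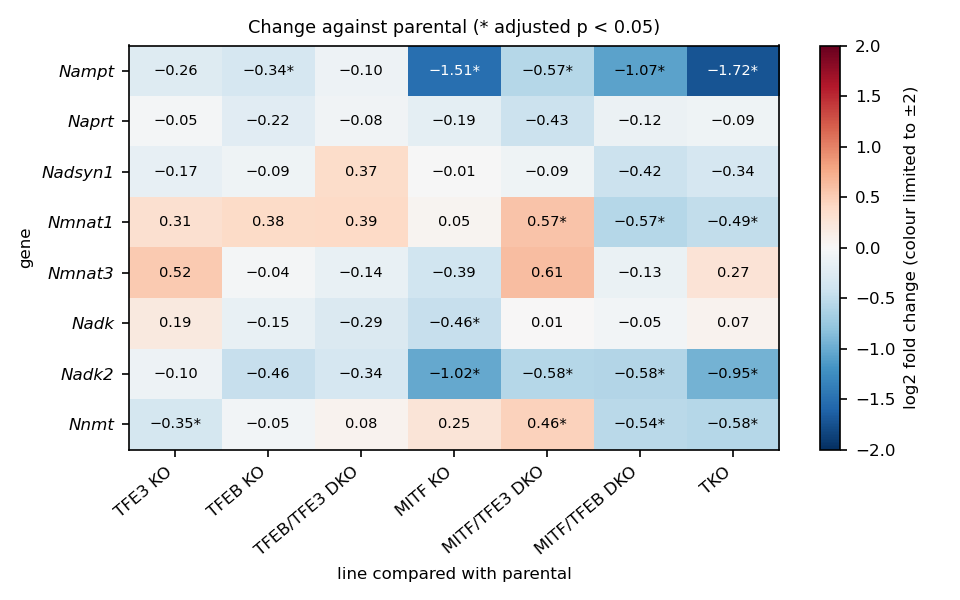
Log2 fold change of the 8 members (rows) in the 7 KO lines against parental (columns), with colour limited to ±2 and an asterisk where the adjusted p was under 0.05. Nampt and Nadk2 are lower in the 4 columns without MITF, down to -1.72 and -1.02, and the TFEB/TFE3 DKO column has no asterisk.

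Loss of MITF from the TFEB/TFE3 DKO lowered the largest number of members: Nampt, Nadsyn1, Nmnat1, Nadk2 and Nnmt, 5 of 8, where 57.9% of all genes were called and 27.7% were lower. Loss from the TFEB KO lowered Nampt, Nmnat1 and Nnmt (56.5% of all genes called), and loss from the TFE3 KO lowered Nampt and Nadk2 and raised Nnmt (45.0%). Loss of TFE3 from the MITF KO raised Nampt, Nmnat1, Nmnat3, Nadk and Nadk2, 5 of 8, where 37.7% of genes were called and 18.1% were higher, but 1 to 4 members passed when 1 library was left out (1 without MITF/TFE3 DKO replicate 1, 2 without MITF KO replicate 2), and the Nadk2 call (0.44, adjusted p = 0.0454) was lost without any 1 of the MITF KO replicates or MITF/TFE3 DKO replicate 1 or 2 (0.0502 to 0.233). Loss of TFEB from the MITF KO raised Nampt, Nadk and Nadk2 and lowered Nmnat1 and Nnmt (49.0%), with the Nadk2 call (0.44, 0.0382) lost without MITF KO replicate 1 or 2 or any 1 of the MITF/TFEB DKO replicates (0.0577 to 0.116).

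The remaining losses touched fewer members. Loss of TFEB from the MITF/TFE3 DKO lowered Nampt, Nmnat1 and Nnmt (50.8% of all genes called), all 3 as DEGs (5.75% of all genes were DEGs downward). Loss of TFEB from the TFE3 KO raised Nadsyn1 and Nnmt and lowered Nadk (28.5%), the last (-0.48, 0.0291) not without TFE3 KO replicate 2 or 3 or TFEB/TFE3 DKO replicate 1 or 3 (0.0738 to 0.164). Loss of TFE3 from the MITF/TFEB DKO lowered Nampt alone (12.4%). Loss of TFE3 from the TFEB KO changed 0 of 8 with limma, edgeR or DESeq2, with 2 at an unadjusted p under 0.05, beside 2.18% of all genes called. The interaction of MITF and TFEB passed for 4 members (35.1% of all genes), that of MITF and TFE3 for 2 (20.2%) and that of TFEB and TFE3 for 2 (12.4%).

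Across the 8 line means, Pearson's r with Nampt was 0.92 for Nadk2, 0.65 for Nmnat1, 0.56 for Nadsyn1, 0.30 for Nnmt and 0.15 to 0.19 for Nadk, Nmnat3 and Naprt. Among 9538 genes with a mean of at least 5 CPM the closest to Nampt were Caprin1 (0.988), Plekhf2 (0.980), Med19 (0.977), Zfp467 (0.976) and C1ra (0.975). These values describe 8 line means, and all lines derive from the same parental cells. C1ra, a complement protease, ran from 20.2 CPM in the TFEB/TFE3 DKO to 3.90 CPM in the MITF KO.

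The enzymes around the 8 members were described by 6 further lists. Of 5 measured genes of other salvage steps and NAD transport, 4 were higher and 1 lower in the MITF KO (37.8% of all genes were called there), with a median of 0.62. Nmrk1, a nicotinamide riboside kinase that bypasses NAMPT, rose in all 4 lines without MITF, from 0.57 in the MITF/TFEB DKO (adjusted p = 0.000869) to 0.92 in the MITF/TFE3 DKO (8.69e-06). It was low, at 1.96 CPM on average in parental cells. Nmrk2 rose by 0.62 in the MITF KO alone (0.0255), with a line mean of at most 1.42 CPM and a call lost in 7 of its alternatives (edgeR 0.141). Pnp, which releases nicotinamide from its riboside, fell by 0.63 in the MITF KO (0.0209) and rose by 1.08 in the MITF/TFEB DKO (0.000128) and by 0.62 in the TKO (0.0154).

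Of 11 genes listed around the kynurenine route, which makes NAD from tryptophan, 4 were measured: Afmid, Haao, Kyat1 and Kyat3. The counts therefore do not describe the whole route. Of these 4, 2 rose in the MITF KO and 2 in the MITF/TFE3 DKO, shares near those of all genes called (37.8% and 41.9%). Afmid, which hydrolyses formylkynurenine, rose by 0.79 in the TKO (adjusted p = 4.73e-05, limma). Haao, which makes the precursor of quinolinate, was at or under 1.57 CPM in every library and Kyat1, a kynurenine aminotransferase, rose in the MITF/TFE3 DKO alone (0.47, 0.024), a call lost in 5 alternatives. None of the 3 NAD glycohydrolases listed was analysed here.

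The NAD consumers comprised the PARP family and the sirtuins. Of 15 PARP genes, 7 fell and 0 rose in the MITF KO (37.8% of all genes called), with a median of -0.22. In the TKO 6 fell and 2 rose (56.2%), and in the MITF/TFEB DKO 6 rose and 1 fell (56.1%). With MITF present, loss of TFE3 lowered 6 (12.3% of all genes called), loss of TFEB lowered 5 (4.84%) and loss of both lowered 3 (8.81%). Parp12 fell by 5.01 in the MITF KO (adjusted p = 7.79e-19), from 135, 139 and 144 CPM in parental cells to 4.0, 3.41 and 2.72 CPM. Parp9 fell by 4.24 (3.02e-16), Parp14 by 3.60 (7.38e-15) and Parp10 by 3.42 (1.17e-16), and all 4 are known as interferon-inducible genes. Parp12 also fell in the TFEB KO by 0.83 (0.000445), in the TFEB/TFE3 DKO by 0.64 (0.00432) and in the TFE3 KO by 0.50 (0.0198), so that its fall was not confined to lines without MITF. In the MITF/TFEB DKO, Parp14 and Parp10 rose by 0.74 (0.00032) and 0.62 (0.00014).

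Of 7 sirtuins, 1 rose in the MITF KO (37.8% of all genes called) and 1 rose and 2 fell in the TKO (56.2%). Sirt2, the mainly cytosolic deacetylase, rose by 0.71 in the MITF/TFEB DKO (adjusted p = 1.24e-07), 0.40 in the TKO (0.000248) and 0.38 in the MITF KO (0.000659), and fell by 0.21 in the MITF/TFE3 DKO (0.0463). Sirt1 rose by 0.56 in the MITF/TFE3 DKO (0.0108, but 0.0523 without its replicate 2), and Sirt6 and Sirt7 fell in the TKO by 0.42 (0.0204) and 0.36 (0.0037), the former not without parental replicate 3 (0.0603) or TKO replicate 2 (0.0618).

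Beyond NAD itself, 8 of 14 NADPH-producing enzymes rose and 4 fell in the MITF/TFEB DKO, and as many in the TKO (56.1% and 56.2% of all genes called), with medians of 0.66 and 0.81. Aldh1l2, the mitochondrial 10-formyltetrahydrofolate dehydrogenase, rose by 2.01 in the TKO (adjusted p = 1.11e-13) and by 1.97 in the MITF KO (3.12e-13). Aldh1l2 was called in 6 KO lines, 5 higher and 1 lower, and so not only in lines without MITF. Its cytosolic counterpart Aldh1l1 rose by 1.89 in the MITF/TFEB DKO (5.73e-10). Me1, the cytosolic malic enzyme, fell by 1.56 in the MITF KO (8.12e-11) and rose by 0.53 in the TFEB KO (0.00444). Mthfd2l was at or under 0.565 CPM except in the 2 lines that lacked both MITF and TFEB, where it was at 1.55 to 3.44 CPM.

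Of 9 genes that turn over or repair NAD(P), 6 rose and 0 fell in the MITF/TFE3 DKO (41.9% of all genes called) and 6 rose and 1 fell in the MITF/TFEB DKO (56.1%). Noct, which removes a phosphate from NADP, and Nnt, the transhydrogenase that makes mitochondrial NADPH, rose in the TKO by 1.32 (adjusted p = 2.15e-06) and 0.94 (2.18e-08). Nnt was higher in 5 KO lines, and so not only in lines without MITF. Nudt13 rose by 0.80 in the MITF/TFEB DKO (2.67e-06) and Nudt5, a hydrolase of ADP-ribose, fell by 0.69 in the MITF KO (0.00579).

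**Figure D5:**
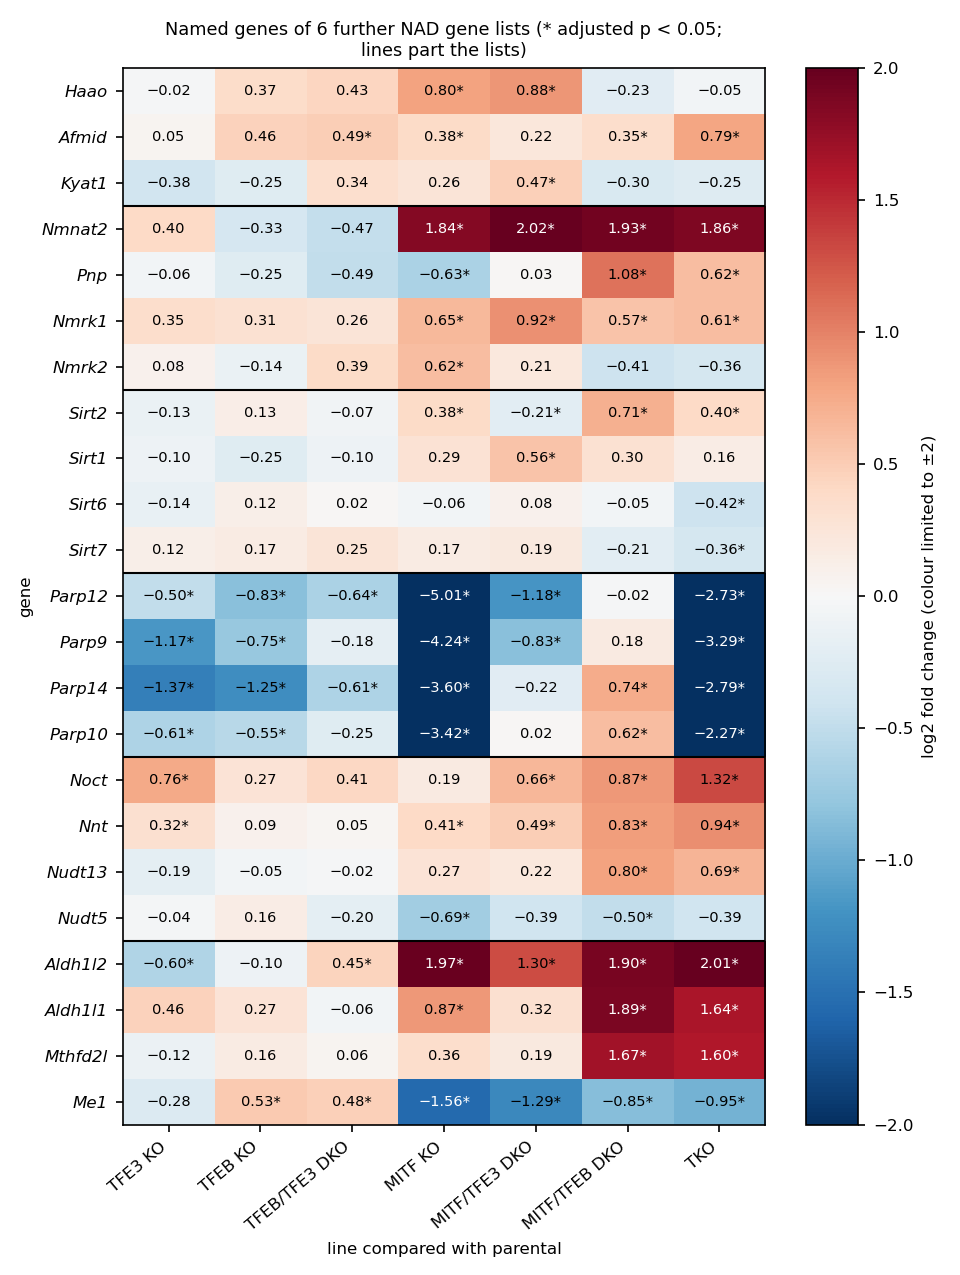
Log2 fold change against parental of the named genes of 6 further lists (rows, in the order kynurenine route, other salvage, sirtuins, PARP family, NAD(P) turnover and NADPH producers) in the 7 KO lines (columns), with colour limited to ±2 and an asterisk where the adjusted p was under 0.05. Nmnat2 rises by 1.84 to 2.02 in the 4 lines without MITF, and Parp12, Parp9, Parp14 and Parp10 are lowest in the MITF KO, at -5.01 to -3.42.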

How the data were processed

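RNA from 24 libraries (8 lines, 3 each) had been prepared with a QuantSeq Forward 3′ kit. Per the submitters' processing notes, reads were handled with FastQC 0.11.9, Trim Galore 0.6.5, cutadapt 2.10 and STAR 2.7.8a on mm39 and normalized with edgeR; the counting tool, annotation and filter that left 12010 genes are not given in the sources used here. The deposited values are a normalized signal: the authors divided CPM by TMM factors, so that totals differ between libraries. CPM had been planned for, and the limma test planned was kept. Values were whole multiples of 1 read in 99.9979% of cases (tolerance 0.1 read), which gave the reads per gene and 18300902 to 26667877 reads per library.

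log2(CPM + 1) of all 24 libraries was fitted with limma 3.58.1 (variance trend, line as the only term, 16 residual degrees of freedom), with Benjamini-Hochberg adjustment over 12010 genes. There were 7 comparisons with parental cells, 9 losses of a single factor from a KO line and 3 interactions, the last in cells that have the remaining factor. All 28 pairs of lines were compared by the same fit. Alternatives were edgeR 4.0.16 quasi-likelihood and DESeq2 1.42.0 tests on the recovered reads, pseudocounts of 0.25 and 5, a minimum mean of 5 CPM, median-of-ratios scaling, fits to only the libraries compared, no variance trend, the replicate number as a block and leaving out each library. The scripts were tested on simulated data. The genes, further lists and tests were chosen with earlier results of these data known. Of each further list at most 4 genes are named, those with the largest change among called genes, and their alternatives were added after the data were seen. Nmnat2 in all lines was also chosen after its values were seen. Positions and sequences are from GRCm39 (mm39) and GENCODE M39. The last 300 bases of each member shared no run of 50 bases with transcripts of another gene.

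Replicates differed by more than sampling noise (chi-square per degree of freedom of at least 4.63), so none was counted as a duplicate. 0 columns of other samples were found. R 4.3.3 and Python 3.11.15 were used.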

Additional observations from a re-analysis of the deposited data

Results flagged for a closer look

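In cells that have TFE3, the effect of losing MITF on 4 members differed, by the interaction test, between cells with and without TFEB. Cells without TFE3 were not tested in this way. The difference was 0.78 for Nampt (adjusted p = 0.000103), -0.99 for Nmnat1 (0.000839), 0.90 for Nadk2 (0.0058) and -0.74 for Nnmt (0.000439), on the log2 scale. In cells that have TFEB, the effect of losing MITF differed between cells with and without TFE3 by 1.20 for Nampt (5.9e-07) and 0.56 for Nnmt (0.00933). In cells that have MITF, the effects of losing TFEB and TFE3 together departed from their sum by 0.49 for Nampt (0.0204) and 0.49 for Nnmt (0.0345). The Nampt value was lost without TFE3 KO replicate 2, TFEB KO replicate 2 or 3, or TFEB/TFE3 DKO replicate 1 (adjusted p 0.0505 to 0.0618), and with only the libraries compared (0.0857). The Nnmt value was lost without parental replicate 2 or 3, TFE3 KO replicate 3, TFEB KO replicate 1, or TFEB/TFE3 DKO replicate 1 or 3 (0.0552 to 0.0927), and with only the libraries compared (0.0759). With 3 libraries a line, no search for single libraries far from the others of their line was made.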

How the results depend on the processing

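Of 152 tests of single members, 53 passed; 36 of these passed under all alternatives and 17 were lost under at least 1, in each of the 17 by leaving out a library. None changed direction, and 10 further values passed under some alternative. The number of members that passed moved by more than 1.5 times as follows. With only the libraries compared, it was 0 in place of 1 for the TFE3 KO and for the TFEB KO against parental, 1 in place of 3 for the MITF/TFE3 DKO and for the TFEB/TFE3 DKO against the TFE3 KO, and 0 in place of 2 for the interaction of TFEB and TFE3. For the TFEB KO it was also 0 with edgeR, median-of-ratios scaling or no variance trend. With a minimum mean of 5 CPM, which removes Naprt, Nadsyn1 and Nadk2, 3 in place of 5 members passed for the TKO against the TFEB/TFE3 DKO.

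Leaving out 1 library gave 0 to 1 for the TFE3 KO (0 without parental replicate 2 or 3), 0 to 1 for the TFEB KO (0 without parental replicate 1, 2 or 3 or TFEB KO replicate 3), 1 to 3 for the MITF/TFE3 DKO against the TFE3 KO (1 without TFE3 KO replicate 3) and 1 to 4 for the TFEB/TFE3 DKO against the TFE3 KO (1 without TFE3 KO replicate 2 or 3 or TFEB/TFE3 DKO replicate 1 or 3). Against the MITF KO it gave 3 to 4 for the MITF/TFEB DKO (3 without MITF KO replicate 1 or MITF/TFEB DKO replicate 2 or 3) and 1 to 4 for the MITF/TFE3 DKO (2 without MITF KO replicate 2, 1 without MITF/TFE3 DKO replicate 1). For the interaction of TFEB and TFE3 it gave 0 to 2, with 0 without TFEB/TFE3 DKO replicate 1 and 1 without 8 other libraries.

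The replicate numbers do not pair the libraries: deviations of libraries with the same number correlated with a mean r of 0.0222 over 84 pairs (-0.66 to 0.77), and with other numbers -0.0126. With the replicate number as a block, 0 in place of 1 member passed for the TFEB KO against parental (Nampt, adjusted p = 0.0549), and no other call on a member changed. Members under 10 CPM rest on 5 to 250 reads per library, which limits what could be detected for them.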
